A study of Homo sapiens with 6 samples.

Results

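The genes described here are 10 components of the Notch pathway in HaCaT, an established line of human keratinocytes that became immortal without a transferred gene. They are the receptors NOTCH1, NOTCH2 and NOTCH3, the ligands JAG1, JAG2 and DLL1, the receptor-modifying enzyme LFNG, and the target genes HES1, HEY1 and NRARP. They were chosen by gene name, with earlier results of these data known, and each matched 1 of the 58735 genes in the deposited table. RNA was sequenced from 3 samples of HaCaT cells treated with dacomitinib for 48 h and from 3 control samples. Dacomitinib binds covalently to EGFR and its relatives and blocks their kinase activity. All samples are labelled wild type and were grown with 10% serum. The series' design text starts treatment at 70% confluence and ties 0.1% DMSO to the experimental group, while neither the dose nor the controls' vehicle is stated there or in the labels. The dacomitinib columns of the table carry a letter that no label explains and were identified by elimination, so every direction below rests on that assignment. HaCaT is a single cell line, and separate cultures within a group are not documented, so the p-values reflect sample-to-sample variation that could be purely technical.

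Notch receptors are single-pass membrane proteins that are activated by ligands on neighbouring cells. Ligand binding exposes the receptor to cleavage by an ADAM protease and then by gamma-secretase, and the released intracellular domain enters the nucleus and joins the DNA-binding protein RBPJ and a Mastermind protein to switch on target genes. In the epidermis, Notch signalling promotes the exit of basal keratinocytes into the differentiating spinous layer. EGFR signalling has been reported to hold down NOTCH1 transcription in keratinocytes.

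With dacomitinib, the targets NRARP and HEY1 and the modifier LFNG fell to between 0.265 and 0.351 times their control FPKM (fragments per kilobase of gene length, scaled by library size, the deposited unit). HES1, a classical Notch target, averaged 1.06 times its control level and did not pass the test with the deposited scaling, though it was called higher under some other scalings. Among the ligands, DLL1 rose and JAG2 fell, though JAG2 passed the test only under some scalings. JAG1 and the receptors NOTCH1, NOTCH2 and NOTCH3 averaged between 0.813 and 1.04 times control and did not pass with the deposited scaling. The scaling between libraries bears on the small differences. The median gene differed by -0.06 on the log2 scale with the deposited scaling and by 0.20 when every library was rescaled to the same FPKM sum, as TPM does (TPM scaling below).

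The promoters of HES1 and NRARP are shown because these 2 target genes gave different results. The windows are the 250 bases before the RefSeq start site in GRCh38.p14, 5′ to 3′ on the gene's strand, at chr3:194135898-194136147 (plus strand) for HES1 and chr9:137302272-137302521 (minus strand) for NRARP. Capitals mark TGGGAA, the core of the sequence that RBPJ binds, which was searched on both strands.
HES1: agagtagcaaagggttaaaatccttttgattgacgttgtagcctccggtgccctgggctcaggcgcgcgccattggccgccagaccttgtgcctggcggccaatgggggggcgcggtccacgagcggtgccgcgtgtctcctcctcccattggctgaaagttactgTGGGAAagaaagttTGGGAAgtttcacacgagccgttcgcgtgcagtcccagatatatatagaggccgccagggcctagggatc
NRARP: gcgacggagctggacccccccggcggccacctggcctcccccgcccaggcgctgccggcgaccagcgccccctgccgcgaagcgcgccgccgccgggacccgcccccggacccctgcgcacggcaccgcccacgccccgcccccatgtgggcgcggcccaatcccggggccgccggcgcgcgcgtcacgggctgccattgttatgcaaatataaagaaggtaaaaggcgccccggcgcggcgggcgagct
The HES1 window holds TGGGAA at 2 places, with first bases at -84 and -70 relative to the start site, and the first belongs to the longer form GTGGGAA. The NRARP window holds none on either strand, which says only that these letters are not in that window. TGGGAA occurs in 20.8% of 35114 promoter windows of the same length in the table, at 2 or more places in 2.90% of them, and GTGGGAA in 5.43%. Of the 10 genes, 8 had a window in the RefSeq table (HEY1 and DLL1 did not), and 2 of the 8 held TGGGAA, HES1 and LFNG. In LFNG it lay at -248 relative to the second of the gene's 2 start sites. A match is a description of the letters, not a measured binding site.

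Libraries held 14960650 to 16179273 fragments on genes, recovered from the steps of the FPKM values. Keratinocyte markers were abundant in both groups, with KRT5, a basal keratin, averaging 358 FPKM with dacomitinib and 452 FPKM in controls, and all 9 keratinocyte markers passed the expression limit. Without overlap between groups, 3 of the 9 were higher with dacomitinib and 5 lower, against 28.9% and 38.2% of all tested genes. KRT14 averaged 131 FPKM with dacomitinib and 239 FPKM in controls, and LAMB3 164 FPKM with dacomitinib and 86.6 FPKM in controls. Of 14 markers of differentiating layers 7 passed, with the defining spinous keratin KRT1 at 13 fragments over the dacomitinib libraries and 0 over the controls. The summed level of those 14 markers was 296 to 429 FPKM with dacomitinib and 235 to 272 FPKM in controls. Most of it was KRT13, at 278 FPKM with dacomitinib and 217 FPKM in controls, which did not pass limma's test (adjusted p = 0.0651). KRT4 added 53.2 FPKM with dacomitinib and 20.4 FPKM in controls, and LOR stood at 0 in both groups. The sum therefore reports mainly KRT13 and KRT4, not the list as a whole. Of the 7 that passed the expression limit, KRT4, FLG and TGM1 were called higher. Among all tested genes 25.4% were called higher and 34.8% lower. SPINK5 was called lower, at 0.441 FPKM with dacomitinib and 4.26 FPKM in controls, and KRT10 and IVL did not pass (adjusted p = 0.415 and 0.934). TGM1, at 1.97 FPKM with dacomitinib and 0.545 FPKM in controls, passed the expression limit only through its dacomitinib level. SPINK5 passed it only through its control level. The summed level of 9 endothelial markers was 10.7 to 13.5 FPKM with dacomitinib and 1.95 to 2.20 FPKM in controls, led by CDH5 at 10.0 FPKM with dacomitinib and 1.15 FPKM in controls, with KDR, EMCN and SOX17 at 0 in both groups. Summed levels were 5.19 to 6.08 FPKM with dacomitinib and 1.82 to 2.14 FPKM in controls for 10 fibroblast and smooth muscle markers, with COL1A2 and PDGFRA at 0 in both groups. The 6 melanocyte markers summed to 3.40 to 4.18 FPKM with dacomitinib and 2.43 to 2.87 FPKM in controls, and the 5 leukocyte markers to 0.204 to 0.362 FPKM with dacomitinib and 0.103 to 0.146 FPKM in controls. Mitochondrial genes took 4.71 ± 0.162% of fragments with dacomitinib and 7.83 ± 0.389% in controls (SD, n = 3). These differences run between the same libraries as the results below, and their part in the results was not tested. In bulk RNA, fewer cells expressing a gene and less RNA per cell cannot be told apart.

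Differences are dacomitinib minus control in log2(FPKM + 1), tested with limma across the 13748 genes with a mean of at least 1 FPKM, at a Benjamini-Hochberg adjusted p of 0.05. Adding 1 understates the change of low genes. All 10 Notch genes passed this expression limit, though HEY1 did so through its control level. Of the 10, 5 were called (50%), 1 higher and 4 lower, against 60.2% of all tested genes, 25.4% higher and 34.8% lower, so the share called was no larger than in the whole table. Their median difference was -0.16, against -0.06 for all tested genes. With TPM scaling 8 of the 10 were called, 5 higher and 3 lower, against 61.9% of all tested genes, 42.1% higher and 19.8% lower. With voom, limma's count method, on the recovered fragments 6 were called, 2 higher and 4 lower, against 62.6%, 30.2% higher and 32.4% lower. The FPKM of the groups did not overlap for 5 of the 10 genes, the same 5 that were called with the deposited scaling, 1 higher and 4 lower, against 67.1% of all tested genes, 28.9% higher and 38.2% lower.

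**Figure D1:**
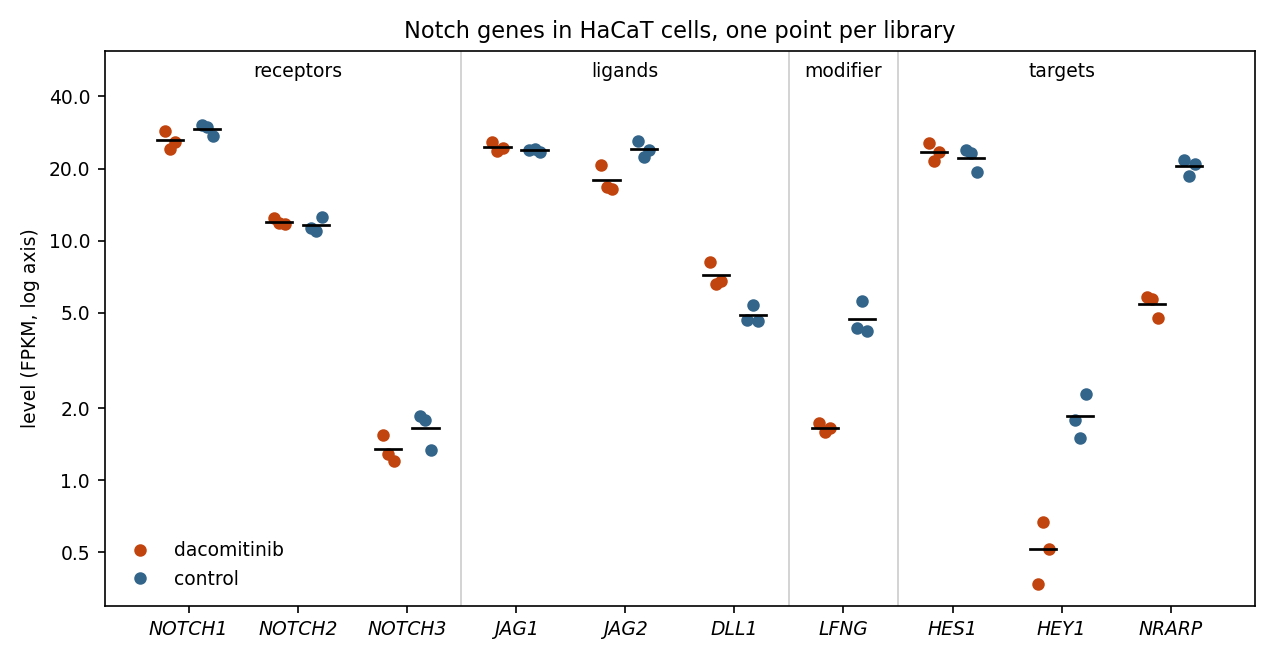
FPKM (log axis) of the 10 Notch genes in each of 3 dacomitinib and 3 control libraries, grouped by role; points are libraries and black bars are group means. The dacomitinib libraries lie below every control library for JAG2, LFNG, HEY1 and NRARP and above them for DLL1, and the groups overlap for the other 5 genes.

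The receptors differed in level more than they differed between groups. NOTCH1 (ENSG00000148400, chromosome 9, 136494433 to 136545786, GRCh38, minus strand) had 28.7, 24.1 and 25.9 FPKM with dacomitinib, against 30.3, 29.8 and 27.4 FPKM in controls. The highest dacomitinib library lay above the lowest control, and the difference of -0.15 (SE 0.07, 95% interval -0.32 to 0.02) did not pass limma's test (adjusted p = 0.115). With TPM scaling the sign turned, to 0.16 (adjusted p = 0.0393), and without dacomitinib replicate 1 the deposited scaling gave -0.21 (adjusted p = 0.0289). The sign for NOTCH1 thus depends on the scale. The median tested gene stood at -0.06 with the deposited scaling and at 0.20 with TPM scaling, and NOTCH1 lay below it under both. Quantile normalization gave 0.06 (adjusted p = 0.423).

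NOTCH2 (ENSG00000134250, chromosome 1, 119911553 to 120069626, minus strand) had 12.5, 11.8 and 11.8 FPKM with dacomitinib, against 11.2, 11.0 and 12.5 FPKM in controls. The third control was the highest of the 6 libraries, and the difference of 0.05 (SE 0.06, 95% interval -0.10 to 0.19) did not pass limma's test (adjusted p = 0.526), whereas it was called higher with TPM scaling, at 0.34 (adjusted p = 0.00403), with quantile normalization, at 0.24 (adjusted p = 0.0115), and with scaling to nuclear protein-coding genes, at 0.21 (adjusted p = 0.0217). NOTCH2 shares sequence with partial copies of itself elsewhere on chromosome 1, and reads could have been divided between them. The copy NOTCH2NLA, the single protein-coding one in the table, held 217 fragments over the dacomitinib libraries and 75 over the controls, beside 10239 with dacomitinib and 8630 in controls on NOTCH2.

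NOTCH3 (ENSG00000074181, chromosome 19, 15159038 to 15200981, minus strand), a receptor best known from vascular smooth muscle, had 1.55, 1.29 and 1.199 FPKM with dacomitinib, against 1.85, 1.79 and 1.33 FPKM in controls. The groups overlapped, and the difference of -0.18 (SE 0.13, 95% interval -0.49 to 0.14) did not pass limma's test (adjusted p = 0.290). It was called under 0 of 17 alternatives, at adjusted p from 0.0958 to 0.938, and its sign turned with TPM scaling, to 0.01. That value still lay below the median tested gene under TPM scaling, 0.20.

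Of the summed FPKM of the 3 receptors, NOTCH1 made up 66.2 ± 1.26% with dacomitinib and 68.7 ± 2.01% in controls, NOTCH2 30.4 ± 1.295% with dacomitinib and 27.4 ± 2.59% in controls, and NOTCH3 3.40 ± 0.281% with dacomitinib and 3.89 ± 0.582% in controls (SD, n = 3). The order NOTCH1, NOTCH2, NOTCH3 held in every library. NOTCH4, the fourth human receptor, had 44 fragments over the dacomitinib libraries and 20 over the controls.

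The ligands are membrane proteins presented to the neighbouring cell. JAG1 (ENSG00000101384, chromosome 20, 10637684 to 10673999, minus strand) had 25.8, 23.7 and 24.4 FPKM with dacomitinib, against 23.9, 24.2 and 23.5 FPKM in controls. The 2 groups lay within a narrow band and overlapped, with a difference of 0.04 (SE 0.05, 95% interval -0.06 to 0.15) that did not pass limma's test (adjusted p = 0.441). JAG1 was called higher with TPM scaling, at 0.35 (adjusted p = 0.000286), and with quantile normalization, at 0.26 (adjusted p = 0.00132). It was also called with scaling to nuclear protein-coding genes, at 0.21 (adjusted p = 0.00286), and with voom, at 0.12 (adjusted p = 0.0481).

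JAG2 (ENSG00000184916, chromosome 14, 105140981 to 105168824, minus strand) had 20.6, 16.7 and 16.5 FPKM with dacomitinib, against 26.0, 22.4 and 23.9 FPKM in controls. All dacomitinib libraries lay below all controls, and JAG2 fell by 0.41 on the log2 scale (SE 0.10, limma adjusted p = 0.00974). The call was lost with TPM scaling, at -0.11 (adjusted p = 0.287), and with quantile normalization, at -0.19 (adjusted p = 0.109), and over all 18 alternatives the adjusted p ran from 0.000398 to 0.287.

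DLL1 (ENSG00000198719, chromosome 6, 170282206 to 170306565, minus strand) had 8.15, 6.61 and 6.79 FPKM with dacomitinib, against 4.66, 5.37 and 4.64 FPKM in controls. The first dacomitinib library was the highest, and all 3 lay above every control. DLL1 averaged 7.18 ± 0.843 FPKM with dacomitinib and 4.89 ± 0.413 FPKM in controls (SD, n = 3), and rose by 0.47 on the log2 scale (SE 0.09, limma adjusted p = 0.00414), a call kept under all 18 alternatives. The strand of the counting is not stated, and DLL1 overlaps FAM120B on the opposite strand, which averaged 5.27 FPKM with dacomitinib and 5.36 FPKM in controls.

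Shares among ligands do not depend on the scaling between libraries. JAG2 supplied 37.8, 35.5 and 34.5% of the summed FPKM of the 3 ligands in the dacomitinib libraries, against 47.6, 43.1 and 45.9% in the controls. DLL1 supplied 14.9, 14.1 and 14.2% with dacomitinib, against 8.54, 10.3 and 8.91% in controls, and JAG1 supplied 49.6 ± 2.09% with dacomitinib and 45.2 ± 1.37% in controls (SD, n = 3). In controls JAG1 and JAG2 stood at equal levels within their spread, while with dacomitinib JAG1 exceeded JAG2 in every library. The summed level of the 3 ligands overlapped between groups, at 49.7 ± 4.17 FPKM with dacomitinib and 52.9 ± 1.503 FPKM in controls.

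LFNG (ENSG00000106003, chromosome 7, 2512529 to 2529177, plus strand) encodes Lunatic fringe, a Golgi enzyme that adds N-acetylglucosamine to fucose on Notch receptors and thereby changes their response to Delta and Jagged ligands. It had 1.73, 1.59 and 1.65 FPKM with dacomitinib, against 4.34, 5.60 and 4.20 FPKM in controls. The dacomitinib libraries were close to each other and all below the controls, of which the second was the highest. LFNG fell by 1.10 on the log2 scale (SE 0.11, limma adjusted p = 0.000193), and voom on fragments, which adds far less to low values, gave -1.43 (SE 0.17). It rested on 287 fragments over the dacomitinib libraries and 716 over the controls.

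The last 3 genes are targets that Notch switches on. HES1 (ENSG00000114315, chromosome 3, 194136145 to 194138732, plus strand), a basic helix-loop-helix repressor that restrains differentiation in many tissues, had 25.5, 21.5 and 23.5 FPKM with dacomitinib, against 23.9, 23.3 and 19.3 FPKM in controls. The groups interleaved, and the difference of 0.08 (SE 0.10, 95% interval -0.15 to 0.31) did not pass limma's test (adjusted p = 0.482). HES1 was called higher with TPM scaling, at 0.39 (adjusted p = 0.00402), with quantile normalization, at 0.31 (adjusted p = 0.0252), and with protein-coding scaling, at 0.26 (adjusted p = 0.0336).

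HEY1, a repressor of the related Hairy/enhancer-of-split with YRPW motif family (ENSG00000164683, chromosome 8), was the lowest of the 10 genes with dacomitinib. It had 0.370, 0.671 and 0.516 FPKM with dacomitinib, against 1.79, 1.505 and 2.29 FPKM in controls. No dacomitinib library reached the lowest control, and these levels stand for 20, 36 and 29 fragments with dacomitinib and 82, 75 and 109 in controls. HEY1 fell by 0.91 in log2(FPKM + 1) (SE 0.16, limma adjusted p = 0.00297) and by 1.77 with voom on fragments (SE 0.31), the larger value being the less affected by the added 1.

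NRARP (ENSG00000198435, chromosome 9, 137300482 to 137302251, minus strand) encodes a small ankyrin-repeat protein that is induced by Notch and limits it by promoting loss of the Notch intracellular domain. It had 5.84, 5.69 and 4.74 FPKM with dacomitinib, against 21.8, 18.7 and 21.0 FPKM in controls. The 2 groups were far apart, with every dacomitinib library below every control. NRARP averaged 5.42 ± 0.597 FPKM with dacomitinib and 20.5 ± 1.61 FPKM in controls (SD, n = 3), a fall of 1.74 on the log2 scale (SE 0.09, limma adjusted p = 1.17e-05), and 2.0% of all tested genes had a lower difference. The calls for NRARP, HEY1 and LFNG held under every alternative in which the gene was tested, 18 for NRARP and 17 each for HEY1 and LFNG, and over these alternatives NRARP ranged from -1.90 to -1.46.

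**Figure D2:**
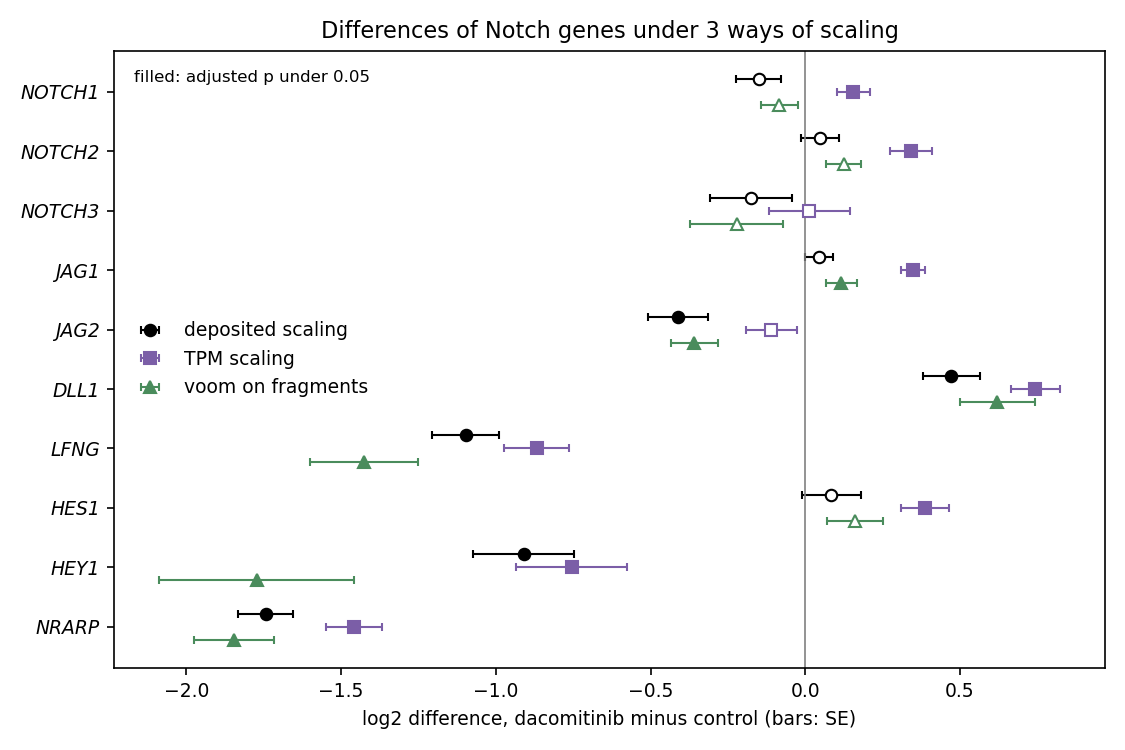
Log2 differences, dacomitinib minus control, of the 10 genes with the deposited scaling in log2(FPKM + 1), with TPM scaling and with voom on recovered fragments; bars are SE and filled symbols have an adjusted p under 0.05. NRARP, LFNG and HEY1 lie left of 0 and DLL1 right of 0 under all 3, while NOTCH1 (-0.15 with the deposited scaling and 0.16 with TPM scaling) and NOTCH3 (-0.18 and 0.01) change sign.

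Ratios of 2 genes within a library are nearly untouched by the scaling between libraries and were computed for 12 pairs chosen by role, as log2 of (FPKM + 0.1). An exact permutation test of 3 against 3 libraries, two-sided, cannot go below p = 0.1, which becomes 0.15 after Benjamini-Hochberg adjustment over the 12, so none could pass. For 8 pairs the groups did not overlap and the exact p was this smallest value. Pairs share genes, so these are not 8 separate results. The share among ratios of other genes was not computed, while 67.1% of all tested genes taken singly did not overlap.

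NRARP over HES1 was -2.11, -1.90 and -2.28 with dacomitinib, against -0.13, -0.32 and 0.12 in controls. The 2 targets thus stood near equal levels in controls and about 2 log2 units apart with dacomitinib, a difference of -1.99. HES1 over HEY1 was higher with dacomitinib by 1.76, at 5.28 ± 0.479 with dacomitinib and 3.52 ± 0.442 in controls (SD, n = 3), but NRARP over HEY1 overlapped between groups, at 3.18 ± 0.417 with dacomitinib and 3.41 ± 0.232 in controls.

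Relative to NOTCH1, the main receptor by level, NRARP was lower with dacomitinib by 1.74 and LFNG by 1.29 on the log2 scale. HES1 over NOTCH1 was -0.17, -0.16 and -0.14 with dacomitinib, against -0.34, -0.36 and -0.51 in controls, a small shift upward with no overlap. JAG1 over JAG2 was higher with dacomitinib by 0.47, DLL1 over JAG1 by 0.50 and DLL1 over JAG2 by 0.97. The 3 ratios among receptors overlapped between groups (exact p = 0.3 to 0.4).

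**Figure D3:**
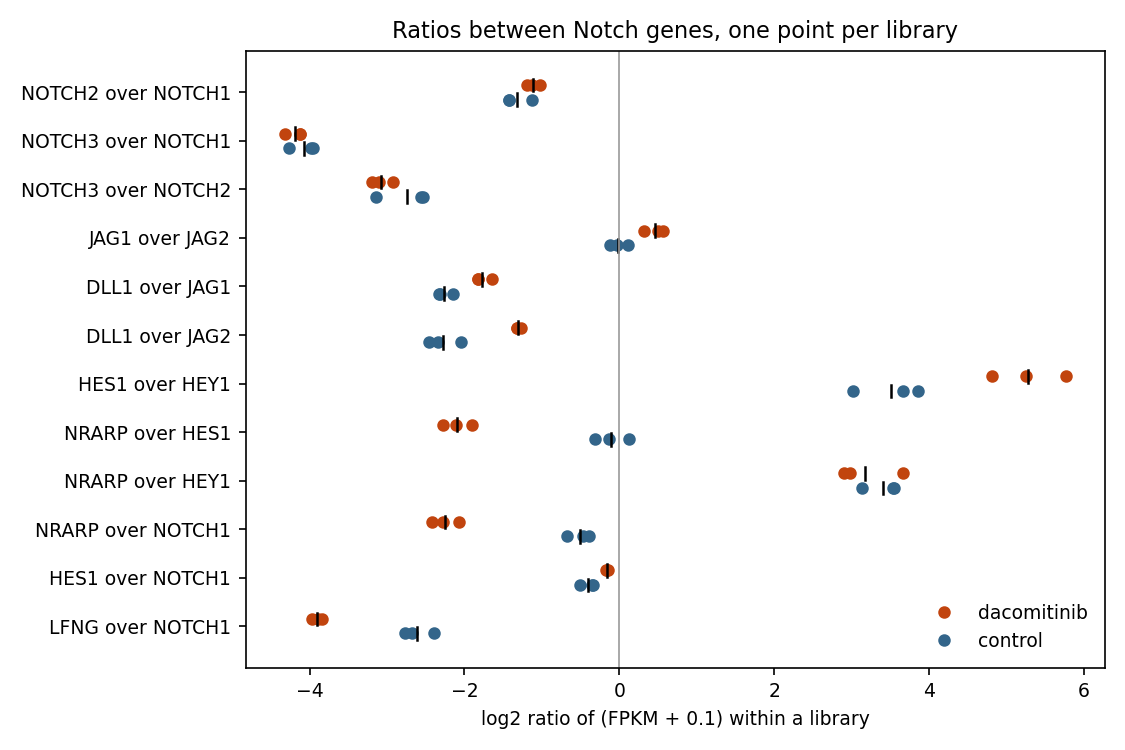
Log2 ratio of (FPKM + 0.1) of 2 Notch genes within each library, for 12 pairs, with 3 dacomitinib and 3 control libraries as points and group means as black ticks. The groups are widest apart for NRARP over HES1, with a difference of -1.99, and overlap for the 3 receptor pairs and for NRARP over HEY1.

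By level, NRARP, JAG2 and HEY1 each stood lower in the order with dacomitinib than in controls. With dacomitinib NOTCH1, JAG1 and HES1 led, at 26.2, 24.6 and 23.5 FPKM, and neighbours in that order overlapped. JAG2, NOTCH2, DLL1, NRARP, LFNG, NOTCH3 and HEY1 followed, at 17.9, 12.01, 7.18, 5.42, 1.66, 1.35 and 0.519 FPKM, each below its predecessor beyond the libraries' range. In controls NOTCH1 led at 29.2 FPKM, followed by JAG2, JAG1, HES1 and NRARP, at 24.1, 23.9, 22.2 and 20.5 FPKM with overlapping neighbours, then NOTCH2 at 11.6 FPKM, DLL1 and LFNG at 4.89 and 4.71 FPKM, overlapping, and HEY1 and NOTCH3 at 1.86 and 1.66 FPKM, overlapping. NRARP thus ranked 7 of 10 by level with dacomitinib and 5 of 10 in controls.

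The wider pathway was followed in 7 lists with 71 genes, of which 56 were tested. Of these, 22 were higher and 14 lower with dacomitinib (64.3% called, against 60.2% of all tested genes), with a median difference of 0.03. With TPM scaling 32 were higher and 7 lower (69.6%, against 61.9% of all tested genes), so the split between directions depends on the scale.

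Among other receptors and ligands, DLK2, a non-canonical ligand, fell to 9.47 ± 1.198 FPKM with dacomitinib, against 12.2 ± 1.25 FPKM in controls (difference -0.34, SE 0.10, limma adjusted p = 0.0266). That call was lost under 8 of 18 alternatives, among them TPM scaling (-0.05, adjusted p = 0.631). It was lost, too, when dacomitinib replicate 2 (adjusted p = 0.0719), dacomitinib replicate 3 (0.0698), control replicate 1 (0.0817) or control replicate 2 (0.0552) was omitted. NOTCH4, DLL3, DLL4 and DLK1 were under the expression limit.

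Among 5 sugar-adding enzymes, 1 rose and 2 fell (60% called, against 60.2% of all tested genes). With TPM scaling 2 were higher and 1 lower, against 42.1% higher and 19.8% lower among all tested genes. RFNG, the Radical fringe paralogue of LFNG, rose to 5.82 ± 0.576 FPKM with dacomitinib, against 4.29 ± 0.339 FPKM in controls (limma adjusted p = 0.00910). POFUT1, which adds the fucose that fringe enzymes extend, fell to 12.9 ± 0.555 FPKM with dacomitinib, against 20.3 ± 2.29 FPKM in controls (limma adjusted p = 0.000816). EOGT, which adds N-acetylglucosamine to the receptors' EGF repeats, fell by 0.43 on the log2 scale (limma adjusted p = 0.0273), a call lost under 8 of 17 alternatives, among them TPM scaling (adjusted p = 0.204). It was lost, too, when dacomitinib replicate 1 (adjusted p = 0.0720), dacomitinib replicate 3 (0.0660), control replicate 1 (0.0975) or control replicate 3 (0.0722) was omitted. LFNG and RFNG, enzymes of 1 family, thus moved in opposite directions. MFNG, also a fringe gene, averaged 3.05 FPKM with dacomitinib and 3.44 FPKM in controls and did not pass limma's test (adjusted p = 0.512).

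Of 6 tested genes of the cleavage steps, 2 were called, both higher (33.3%, against 60.2% of all tested genes). NCSTN (nicastrin, a gamma-secretase subunit) averaged 27.0 ± 2.83 FPKM with dacomitinib and 20.6 ± 0.957 FPKM in controls (limma adjusted p = 0.00611). With TPM scaling 5 of the 6 were higher and 0 lower, against 42.1% higher and 19.8% lower among all tested genes. With voom 4 were higher and 1 lower, against 30.2% higher and 32.4% lower among all tested genes. APH1B and PSENEN were under the expression limit.

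Of 6 tested genes of the RBPJ activator complex, 1 rose and 3 fell (66.7% called, against 60.2% of all tested genes). With TPM scaling 2 were higher and 1 lower, against 42.1% higher and 19.8% lower among all tested genes. The balance of directions thus depends on the scale. MAML2, a Mastermind coactivator, averaged 11.6 ± 0.805 FPKM with dacomitinib and 9.08 ± 0.207 FPKM in controls, and KAT2A, a histone acetyltransferase, 13.7 ± 0.881 FPKM with dacomitinib and 23.6 ± 0.299 FPKM in controls. RBPJ itself averaged 5.90 ± 0.0406 FPKM with dacomitinib and 7.17 ± 0.508 FPKM in controls, a difference of -0.24 (SE 0.06, limma adjusted p = 0.0125) that became 0.03 with TPM scaling (adjusted p = 0.673). MAML3 was under the expression limit.

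Of 12 tested corepressor genes, 5 rose and 2 fell (58.3% called, against 60.2% of all tested genes). With TPM scaling 7 were higher and 2 lower, against 42.1% higher and 19.8% lower among all tested genes. CIR1, a corepressor that binds RBPJ, averaged 13.2 ± 0.458 FPKM with dacomitinib and 7.48 ± 0.449 FPKM in controls, and TLE2, a Groucho family corepressor, 2.27 ± 0.463 FPKM with dacomitinib and 1.24 ± 0.0702 FPKM in controls. HDAC1, a histone deacetylase, averaged 30.9 ± 1.14 FPKM with dacomitinib and 51.2 ± 0.522 FPKM in controls. These 3 were also called with TPM scaling, and RBPJL was under the expression limit.

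Of 15 tested genes of ligand and receptor endocytosis and turnover, 6 rose and 4 fell (66.7% called, against 60.2% of all tested genes). With TPM scaling 8 were higher and 1 lower, against 42.1% higher and 19.8% lower among all tested genes. DTX4, a Deltex E3 ubiquitin ligase, averaged 48.9 ± 3.10 FPKM with dacomitinib and 25.6 ± 1.56 FPKM in controls, and FBXW7, which marks the Notch intracellular domain for degradation, 4.16 ± 0.119 FPKM with dacomitinib and 2.34 ± 0.0686 FPKM in controls. NEURL1B, an E3 ligase for Notch ligands, averaged 0.516 ± 0.215 FPKM with dacomitinib and 2.29 ± 0.271 FPKM in controls, and CDK8, which phosphorylates the intracellular domain, 8.19 ± 0.222 FPKM with dacomitinib and 11.3 ± 0.165 FPKM in controls. NEURL1B passed the expression limit only through its control level. The CDK8 call was lost with TPM scaling (adjusted p = 0.0871), and NEURL1 and DTX1 were under the expression limit.

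Of 11 tested genes among other reported targets, 7 rose and 2 fell, against 25.4% higher and 34.8% lower among all tested genes. This list was chosen with earlier results of these data known, so the split is not an independent observation. With TPM scaling 8 were higher and 2 lower, against 42.1% higher and 19.8% lower. GATA3, a transcription factor of the epidermis and of T cells, averaged 34.6 ± 3.93 FPKM with dacomitinib and 8.04 ± 1.10 FPKM in controls (difference 1.98, SE 0.11, limma adjusted p = 1.88e-05), and BHLHE40, a helix-loop-helix repressor, 42.8 ± 0.493 FPKM with dacomitinib and 22.5 ± 2.27 FPKM in controls. CCND1 (cyclin D1) averaged 83.7 ± 2.47 FPKM with dacomitinib and 151 ± 5.68 FPKM in controls, and MYC 41.1 ± 2.71 FPKM with dacomitinib and 62.9 ± 3.77 FPKM in controls. Others that rose, named after their values were seen, were BHLHE41, SNAI2, HES2 and CDKN1A (the CDK inhibitor p21, 25.7 ± 0.801 FPKM with dacomitinib and 13.8 ± 2.04 FPKM in controls). MYC and CCND1 are also classical growth factor response genes. HES5, HES6, HES7, HEY2 and HEYL were under the expression limit, so among the HES and HEY genes on the lists only HES1, HEY1, HES2 and HES4 were tested.

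**Figure D4:**
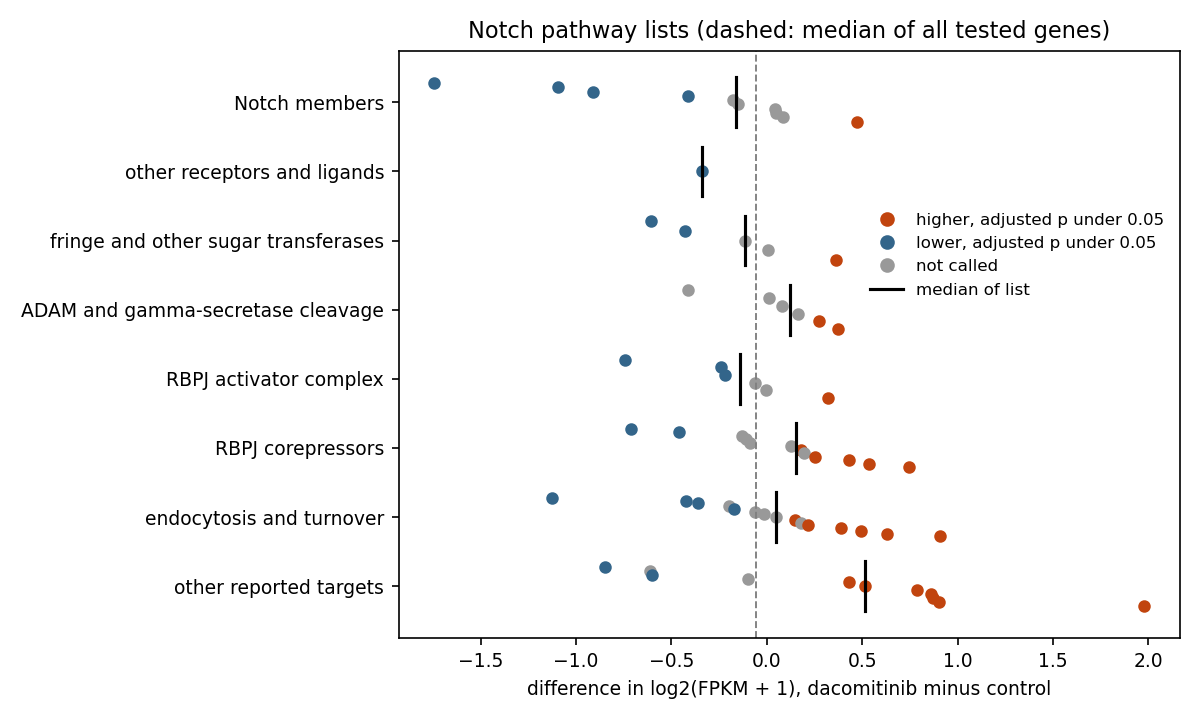
Differences in log2(FPKM + 1), dacomitinib minus control, of each tested gene in the 10-gene set and the 7 wider lists; colour gives the limma call, black ticks are list medians and the dashed line is the median of all tested genes, -0.06. The other reported targets have a median of 0.51 with GATA3 farthest right at 1.98, and NRARP is farthest left at -1.74.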

How the data were processed

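Per the labels, RNA was extracted with TRIzol, and a NEBNext Ultra RNA kit was used for the libraries. The authors deposited 1 table of FPKM per gene. The submitters' processing notes list DESeq2 1.20.0, CASAVA, featureCounts, HISAT2 and fastp, with the build GRCh38 and no role for each tool. Columns C and a number matched the control titles. Columns S and a number matched no title and were left for dacomitinib, and their numbers only name them.

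In every library 100% of the values above 0, multiplied by gene length, were whole fragments (tolerance 0.01), which gave fragments per gene. The library size in the FPKM was 1.07 ± 0.0244 times the fragment sum with dacomitinib and 0.952 ± 0.00449 times in controls (SD, n = 3), so a scaling preceded deposit.

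Because a count model is not suited to FPKM, limma 3.58.1 in R 4.3.3 was applied to log2(FPKM + 1), with a trended prior variance, two-sided, at a mean of at least 1 FPKM, after a test on simulated fragments. Voom on the recovered fragments with trimmed-mean scaling was an alternative. The genes and lists were chosen with earlier results of these data known. All 10 genes are named, and per list up to 2 with the largest rise and 2 with the largest fall past the threshold. Some genes that this rule or the lists include are not reported here. The 18 alternatives were pseudocounts, filters, scalings, limma settings, voom, a replicate block and leaving out each library. Promoters are from RefSeq (GRCh38.p14). Fragments without molecular identifiers are not independent molecules.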

Additional observations from a re-analysis of the deposited data

How the results depend on the processing

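Of the 10 Notch genes, 5 were called as reported. The count was 3 at a mean of at least 5 FPKM, where 7 were tested, and 8 with TPM scaling (5 higher, 3 lower) and with scaling to nuclear protein-coding genes (4 higher, 4 lower). Among all genes, 5579 of 7681 tested were called at that stricter limit. With TPM scaling 8514 of 13748 were called, and with protein-coding scaling 8175 of 13748. The Notch count was 5 to 6 when 1 library was left out (7319 to 7870 of all 13748 tested genes) and 5 to 7 under the others. NOTCH1 turned to 0.16 and RBPJ to 0.0335 with TPM scaling, both below the median tested gene under that scaling, 0.20. In the list of other receptors and ligands the 1 call was DLK2. With limma 0 were called with no filter (1 at an unadjusted p under 0.05), with TPM scaling, quantile normalization or protein-coding scaling (0 at an unadjusted p under 0.05), and 0 to 1 when 1 library was left out, while voom called 1. The 2 calls of the cleavage list, both higher, became 5 with TPM scaling (5 higher, 0 lower) and 4 with protein-coding scaling (4 higher, 0 lower). Quantile normalization and voom each gave 5 (4 higher, 1 lower). Of all 13748 tested genes, quantile normalization called 8111 and voom 8603. Genes higher, 3493 as reported, were 1946 at a mean of at least 5 FPKM and 5786 with TPM scaling, and genes lower, 4778 as reported, were 2728 with TPM scaling. Rescaling moves all genes together and a stricter filter tests fewer genes. For other differences the cause was not tested. Median ratio scaling left the counts of genes as reported, at 8271, and the median difference at -0.06. It nearly equals the deposited scaling and so is not a separate check. Of the 12 ratios 8 did not overlap, and 8 to 11 when 1 library was left out. The sample numbers are not said to mark shared cultures. Correlations of deviations between libraries of the same number were 0.03, -0.02 and 0.04, which cannot settle whether cultures were paired. With the replicate block 5 Notch genes and 7883 genes in all were called, EOGT losing its call (adjusted p = 0.0723). Depth limits genes with low counts, such as HEY1 with 85 fragments over the dacomitinib libraries.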
